A study of Gallus gallus with 58 samples.

Results

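This account follows 8 regulators of red cell gene expression in the blood of newly hatched chicks: GATA1, KLF1, TAL1, LMO2, GFI1B, HEMGN, NFE2 and BCL11A. They were chosen by symbol, as the probe sets whose only gene symbol in the array annotation is one of these names, with the highest-mean probe set standing for a gene. Of the 8 genes, 4 had such a probe set: TAL1, LMO2 (2 probe sets), GFI1B and HEMGN. The other 4, GATA1, KLF1, NFE2 and BCL11A, are not analysed here. The 4 measured genes stand among 11528 genes with a single symbol, held by 12300 of the 20804 probe sets. In the gene table of assembly GRCg7b, TAL1 lies on chromosome 8, LMO2 on chromosome 5, GFI1B on chromosome 17 and HEMGN on the sex chromosome Z.

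Red cell precursors are held on their path by a small set of nuclear proteins that bind DNA together. TAL1, a basic helix-loop-helix factor, pairs with E proteins at E-box sites. LMO2, a LIM-only protein that does not bind DNA itself, bridges TAL1 to GATA factors in a complex with LDB1. GFI1B, a zinc finger repressor, recruits the histone demethylase KDM1A and its partner RCOR1 and is needed in mice for red cells and platelets alike. HEMGN, hemogen, is a nuclear protein of blood-forming cells and a GATA1 target in mammals. Birds keep the nucleus and RNA in circulating red cells, so that transcripts of such regulators can be measured in whole blood. Thrombocytes, the nucleated avian counterpart of platelets, use several of the same factors.

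Chicks were injected on the day of hatch with CpG-ODN 2007, a short synthetic DNA that stimulates the chicken receptor TLR21, or served as controls. What the controls received, the breed and the sex of the chicks are not given in the labels used here. Blood was taken from different chicks at 3 h (10 CpG, 10 control), at day 3 (D3; 8 CpG, 8 control) and at day 6 (D6; 10 CpG, 12 control), with 1 array per chick and 58 in all. Values are expression levels on the log2 scale, as deposited, so that a difference of 1 is a 2-fold difference. Levels of different probe sets are not comparable with each other.

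The arrays had medians between 6.64 and 6.78. Each array was correlated with the rest of its own group, and the median r lay between 0.959 and 0.98 for all but 3 arrays, which stood apart at 0.942 to 0.947: CpG chick 31 at D6, control chick 74 at 3 h and control chick 86 at D3. Chick 31 had the lowest HEMGN and the highest TAL1 and GFI1B of its 10 chicks, chick 86 likewise of its 8 chicks, and chick 74 the highest HEMGN and the lowest LMO2 of its 10 chicks. Without these 3 arrays the time step calls of the 4 genes kept their direction and their side of the threshold, except for TAL1 from D3 to D6 in controls (-0.17, adjusted p = 0.0652). Of the red cell genes, HBA1, an alpha globin, averaged 14.0 to 14.3 over the 6 groups. SLC4A1, the band 3 anion exchanger of the red cell membrane, averaged 12.8 to 13.3. Others had lower means, such as ALAD at 8.67. The 4 regulators had high deposited values, with means over all arrays above those of 96.7% (LMO2) to 99.1% (TAL1) of probe sets. As levels of different probe sets are not comparable, these ranks do not show how well the genes were measured.

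The first question was whether the CpG injection shifted these regulators. None of the 4 differed between CpG and control chicks at any of the 3 times by limma, and none had an unadjusted p under 0.05 in any of the 12 tests. The smallest adjusted p was 0.441, for LMO2 at D6. Over all 20804 probe sets, the share called in the same contrasts was 0% at 3 h, 0.312% at D3 and 2.11% at D6, so that a count of 0 of 4 is near the background. In blood, fewer cells of a type and less RNA per cell cannot be told apart in any of these values.

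The 95% intervals give the precision of each CpG effect. For GFI1B the CpG effect was -0.01 ± 0.08 (log2, SE) at 3 h, -0.10 ± 0.09 at D3 and 0.09 ± 0.07 at D6, with 95% intervals that reach no further than -0.27 and 0.24. For TAL1 it was -0.11 ± 0.07, 0.03 ± 0.08 and 0.03 ± 0.07 at the same times, with intervals between -0.26 and 0.19. For LMO2 it was -0.08 ± 0.07, 0.08 ± 0.08 and 0.13 ± 0.07, between -0.23 and 0.27. CpG effects within these bounds are not excluded. The intervals are not adjusted over probe sets as the calls are, so that they are not limits of detection.

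HEMGN was less precisely measured, because chicks of a group differed more. Its CpG effect was 0.15 ± 0.17 at 3 h (interval -0.18 to 0.48), 0.01 ± 0.19 at D3 (-0.36 to 0.38) and -0.25 ± 0.16 at D6 (-0.57 to 0.07). The D6 value rests in part on chick 31, and without that chick it was -0.11 (adjusted p = 0.794). The change of the CpG effect between times did not pass for any of the 4 genes either (12 tests, smallest adjusted p = 0.531). One of the 12 had an unadjusted p under 0.05, LMO2 from 3 h to D6 (0.21 ± 0.10). The largest was for HEMGN from 3 h to D6, at -0.40 ± 0.23. The background share for these changes was 0.00961% from 3 h to D3, 0% from D3 to D6 and 0.596% from 3 h to D6.

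**Figure D1:**
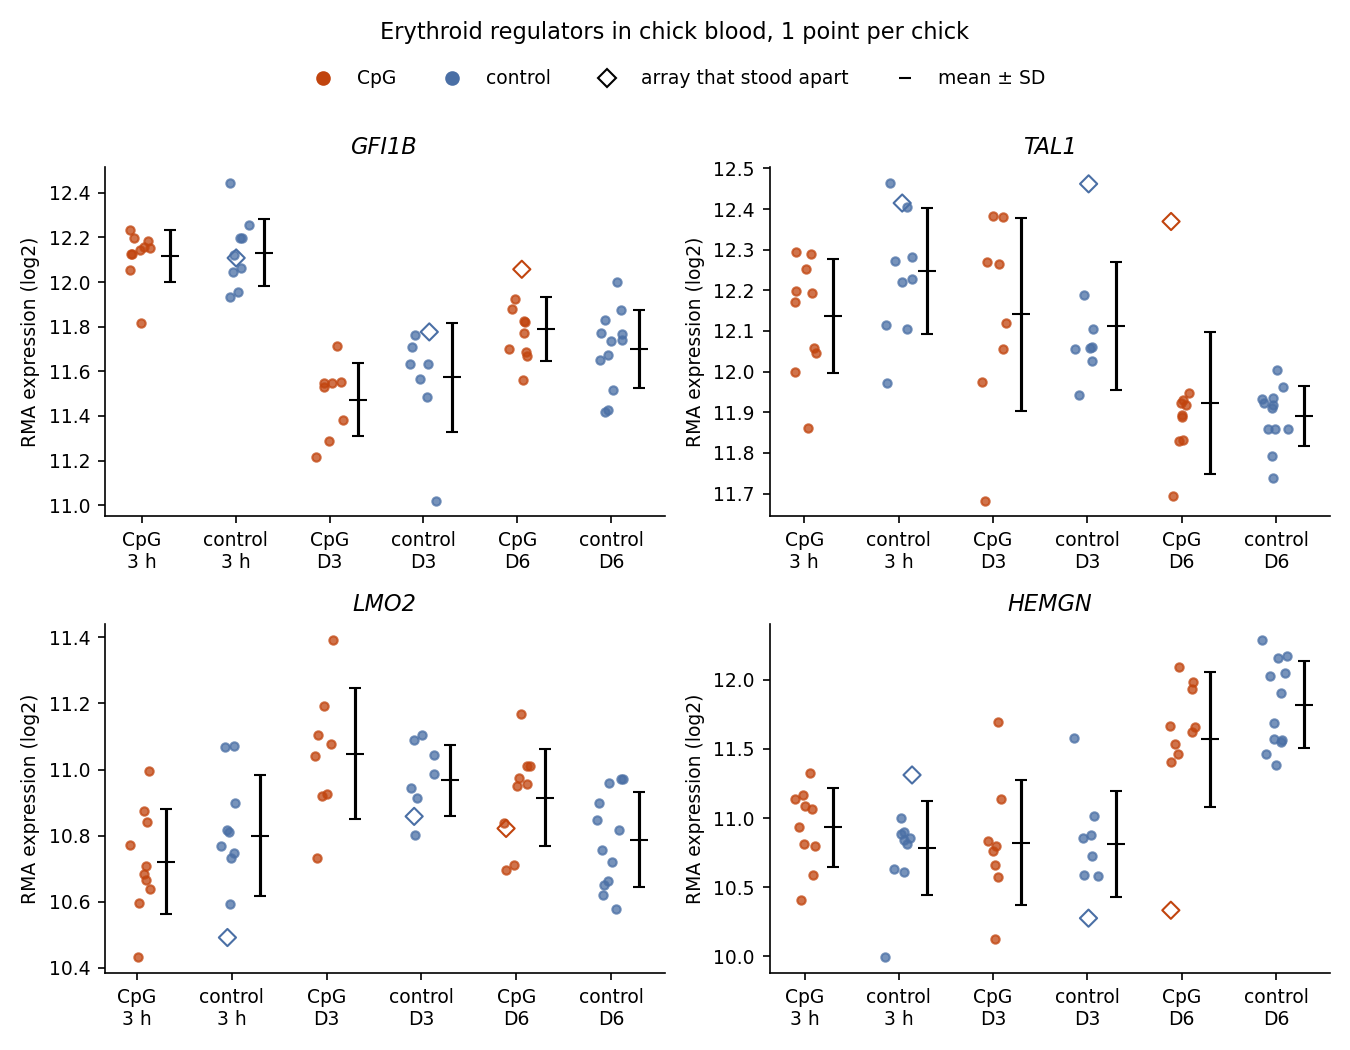
Expression (log2, vertical axis) of GFI1B, TAL1, LMO2 and HEMGN in each chick by treatment and time, with the mean and SD of each group beside its points and open diamonds for the 3 arrays that stood apart. CpG and control chicks of one time overlap in all 4 genes, GFI1B is highest at 3 h and HEMGN highest at D6.

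Over time after hatch, all 4 genes had a called change in at least 1 of 3 overlapping steps in CpG chicks. In controls 3 of 4 had one, all but LMO2. The share of all probe sets called in any of the 3 steps was not computed. It can be no lower than the largest single step, at 44.6% in CpG chicks and 48% in controls. The counts of 4 of 4 and 3 of 4 are thus not shown to exceed it. GFI1B dropped by D3 and stayed below its hatch-day level, HEMGN rose between D3 and D6, TAL1 was lower at D6, and LMO2 was higher at D3 in CpG chicks. In control chicks 1 of 4 was called from 3 h to D3 (24.8% of all probe sets), 2 of 4 from D3 to D6 (14.7%) and 3 of 4 from 3 h to D6 (48%). In CpG chicks 2 of 4, 3 of 4 and 4 of 4 were called over the same steps (19.4%, 27.1% and 44.6%). The count of 1 of 4 is near its background, and 4 genes are too few to judge the other counts. The time steps of one treatment share their groups with each other, as the CpG effects share them with the time steps.

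GFI1B, the repressor, was highest on the hatch day. At 3 h it ranged from 11.82 to 12.23 in CpG chicks (median 12.15) and from 11.93 to 12.44 in controls (median 12.12). At D3 it ranged from 11.21 to 11.71 (median 11.54) in CpG chicks and from 11.02 to 11.78 (median 11.63) in controls. At D6 it ranged from 11.56 to 12.06 (median 11.79) in CpG chicks and from 11.42 to 12 (median 11.74) in controls. All 8 CpG chicks at D3 lay below all 10 CpG chicks at 3 h, and all 8 controls at D3 below all 10 controls at 3 h. Complete separation downwards was seen in 0.865% of probe sets over this step in CpG chicks and in 1.37% in controls.

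From 3 h to D3 GFI1B fell by 0.65 ± 0.08 in CpG chicks (adjusted p = 5.57e-08) and by 0.56 ± 0.08 in controls (adjusted p = 4.78e-07), to 0.639 and 0.679 of the 3 h level. The share of all probe sets called lower over this step was 9.74% in CpG chicks and 13% in controls. From D3 to D6 it rose by 0.32 ± 0.08 in CpG chicks (adjusted p = 0.00405), with 6 of 10 above all CpG chicks at D3, and was at 0.13 ± 0.08 in controls (adjusted p = 0.271). This step is not shown to differ between the treatments: the difference was 0.19 ± 0.11 (adjusted p = 0.859). Control chick 90 was the lowest at D3, at 11.02 against 11.49 to 11.78 in the other controls. Without it the fall in controls was 0.48 and the later step 0.05 (adjusted p = 0.711). The D6 level was still below that of 3 h, by -0.33 ± 0.08 in CpG chicks (adjusted p = 0.000505) and -0.43 ± 0.07 in controls (adjusted p = 3.03e-06).

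Ordered by mean, GFI1B ran from controls at 3 h (12.13) and CpG chicks at 3 h (12.12) through CpG chicks at D6 (11.79), controls at D6 (11.70) and controls at D3 (11.57) to CpG chicks at D3 (11.47). The gap between CpG chicks at 3 h and CpG chicks at D6 was 1.9 times the spread between chicks of a group (residual SD 0.17), and all the other gaps between neighbours were smaller than that spread.

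Some thrombocyte genes were lower at D3 as well, and their part in the fall of GFI1B was not tested beyond a covariate. The thrombocyte score, the mean z-score of 11 marker genes, averaged 0.24 in CpG chicks and 0.48 in controls at 3 h, -0.03 in CpG chicks and -0.26 in controls at D3, and 0.08 in CpG chicks and -0.47 in controls at D6. Of the 11 genes, 3 fell and 2 rose in CpG chicks from 3 h to D3, beside 9.74% of probe sets called lower and 9.68% higher. In controls 6 fell and 1 rose, beside 24.8% of probe sets called either way and 13% called lower. GP9, a platelet glycoprotein, was named as a marker that moved with GFI1B, so that it does not stand for the 11 genes. It fell by 1.11 ± 0.16 in controls over this step (adjusted p = 2.18e-07) and was at -0.35 ± 0.16 in CpG chicks (adjusted p = 0.117). With the thrombocyte score as a covariate the fall of GFI1B was 0.62 in CpG chicks (adjusted p = 2.32e-07) and 0.49 in controls (adjusted p = 0.000134). The score mixes genes that fell with genes that rose, so that this fit cannot settle what part thrombocytes had. At D6, 4 of the 11 thrombocyte genes were higher in CpG chicks than in controls, beside 1.52% of probe sets called higher.

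HEMGN showed the largest movement of the 4. At 3 h it ranged from 10.41 to 11.32 in CpG chicks (median 11.001) and from 9.99 to 11.31 in controls (median 10.85). At D3 it ranged from 10.13 to 11.70 in CpG chicks (median 10.78) and from 10.28 to 11.58 in controls (median 10.79). At D6 it ranged from 10.33 to 12.09 in CpG chicks (median 11.64) and from 11.39 to 12.29 in controls (median 11.80). All 12 controls at D6 lay above all 10 controls at 3 h, and 9 of 10 CpG chicks at D6 above all CpG chicks at 3 h. The exception was chick 31, whose array stood apart and which lay below all CpG chicks at 3 h.

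From 3 h to D3 HEMGN did not pass, at -0.11 ± 0.18 in CpG chicks (adjusted p = 0.751) and 0.03 ± 0.18 in controls (adjusted p = 0.93). From D3 to D6 it rose by 0.74 ± 0.18 in CpG chicks (1.68-fold, adjusted p = 0.00174) and by 1.00 ± 0.17 in controls (2.01-fold, adjusted p = 4.04e-05). Over this step 14.8% of probe sets were called higher in CpG chicks and 6.76% in controls. The treatments did not pass a test of the difference (-0.26 ± 0.24, adjusted p = 0.897), and without the 3 arrays that stood apart the rise was 0.88 in CpG chicks and 0.93 in controls. Over the whole span HEMGN rose by 0.64 ± 0.17 in CpG chicks (adjusted p = 0.00161) and by 1.04 ± 0.16 in controls (adjusted p = 2.96e-07), against 0.77 and 1.09 without the 3 arrays. Over this span 24.1% of probe sets were called higher in CpG chicks and 26.2% in controls. Complete separation upwards was seen in 3.55% of probe sets in controls over that span.

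By mean, HEMGN ran from controls at D6 (11.82) and CpG chicks at D6 (11.57) to CpG chicks at 3 h (10.93), CpG chicks at D3 (10.82), controls at D3 (10.81) and controls at 3 h (10.78). The gap between CpG chicks at D6 and CpG chicks at 3 h was 1.71 times the residual SD of 0.37, and the others were below that SD.

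The erythroid effector score was the mean z-score of 26 genes, mostly of haemoglobin, haem synthesis, iron handling and the red cell membrane, with enzymes such as BPGM, CA2, CAT and NT5C3A and the signalling and survival genes KIT, JAK2 and BCL2L1. It averaged -0.18 in CpG chicks and -0.26 in controls at 3 h, 0.01 in CpG chicks and 0.07 in controls at D3, and 0.15 in CpG chicks and 0.18 in controls at D6, with a range at D6 of -0.77 to 0.41 in CpG chicks and -0.07 to 0.36 in controls. In controls most of the difference in the score lay between 3 h and D3, a step at which HEMGN did not pass. In CpG chicks the score was higher at each later time, and its D6 mean includes the lowest value of -0.77. Whether the score and HEMGN differ in time course was not tested. With this score as a covariate the rise of HEMGN over the whole span was 0.40 in CpG chicks (adjusted p = 0.0459) and 0.73 in controls (adjusted p = 0.000499), and the step from D3 to D6 was 0.65 and 0.93 (adjusted p = 0.00295 and 4.52e-05). This score too mixes genes that rose with genes that fell, so that this fit cannot settle what part red cells had.

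TAL1, the helix-loop-helix factor, moved less. At 3 h it ranged from 11.86 to 12.29 in CpG chicks (median 12.18) and from 11.97 to 12.46 in controls (median 12.25). At D3 it ranged from 11.68 to 12.38 in CpG chicks (median 12.19) and from 11.94 to 12.46 in controls (median 12.06). At D6 it ranged from 11.69 to 12.37 in CpG chicks (median 11.91) and from 11.74 to 12.003 in controls (median 11.91). The D6 groups were the lowest, and 11 of 12 controls at D6 lay below all controls at 3 h, while 3 of 10 CpG chicks at D6 lay below all CpG chicks at 3 h.

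From 3 h to D6 TAL1 fell by 0.21 ± 0.07 in CpG chicks (adjusted p = 0.0156) and by 0.36 ± 0.07 in controls (adjusted p = 3.36e-05), where 20.5% and 21.7% of probe sets were called lower. Without the 3 arrays the differences were -0.26 in CpG chicks and -0.34 in controls. The fall in CpG chicks did not pass after repeated quantile normalization (adjusted p = 0.0886) or with the erythroid effector score as a covariate (adjusted p = 0.102). No change passed from 3 h to D3, at 0.00 ± 0.08 in CpG chicks and -0.14 ± 0.08 in controls. From D3 to D6 it fell by 0.22 ± 0.08 in CpG chicks (adjusted p = 0.0323) and by 0.22 ± 0.08 in controls (adjusted p = 0.0381), where 12.3% and 7.95% of probe sets were called lower. Without the 3 arrays the difference was -0.27 in CpG chicks (adjusted p = 0.00354). Both of these calls sat close to the threshold. The call in CpG chicks ended when any one of chicks 16, 17, 18, 20, 27, 28 or 35 was left out (-0.21 to -0.18, adjusted p up to 0.0803), and that in controls without any one of chicks 86, 87, 90, 99, 105, 106 or 108 (-0.22 to -0.17, adjusted p up to 0.106).

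In the order of means, TAL1 ran from controls at 3 h (12.25) through CpG chicks at D3 (12.14), CpG chicks at 3 h (12.14) and controls at D3 (12.11) to CpG chicks at D6 (11.92) and controls at D6 (11.89). The one gap between neighbours that exceeded the residual SD of 0.16 was that between controls at D3 and CpG chicks at D6 (1.15 times the SD).

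LMO2, the bridging protein, was highest at D3. At 3 h it ranged from 10.43 to 10.996 in CpG chicks (median 10.70) and from 10.49 to 11.07 in controls (median 10.79). At D3 it ranged from 10.73 to 11.39 in CpG chicks (median 11.06) and from 10.80 to 11.10 in controls (median 10.96). At D6 it ranged from 10.70 to 11.17 in CpG chicks (median 10.95) and from 10.58 to 10.97 in controls (median 10.79). All 6 groups overlapped, and no gap between neighbouring group means exceeded the residual SD of 0.17.

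From 3 h to D3 LMO2 rose by 0.33 ± 0.08 in CpG chicks (1.26-fold, adjusted p = 0.00142), with 5 of 8 chicks above all CpG chicks at 3 h, where 9.68% of probe sets were called higher. In controls it was at 0.17 ± 0.08 (adjusted p = 0.117). The difference between these steps did not pass (0.16 ± 0.11, adjusted p = 0.816), so that a rise particular to CpG chicks is not shown. From D3 to D6 it was at -0.13 ± 0.08 in CpG chicks (adjusted p = 0.19) and -0.18 ± 0.08 in controls (adjusted p = 0.0968). At D6 it was higher than at 3 h in CpG chicks, by 0.19 ± 0.07 (adjusted p = 0.0294), and this call ended without chick 1, 3 or 27 (0.16 to 0.18, adjusted p up to 0.07), with array medians subtracted (0.17) and with the W-linked score described later as a covariate (0.17). In controls the D6 level was at -0.01 ± 0.07 from that of 3 h. The second LMO2 probe set gave 0.30 ± 0.09 in CpG chicks from 3 h to D3 (adjusted p = 0.00757) and 0.26 ± 0.08 from 3 h to D6 (adjusted p = 0.00903), and 0.21 ± 0.09 (adjusted p = 0.0622) and 0.05 ± 0.08 in controls.

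**Figure D2:**
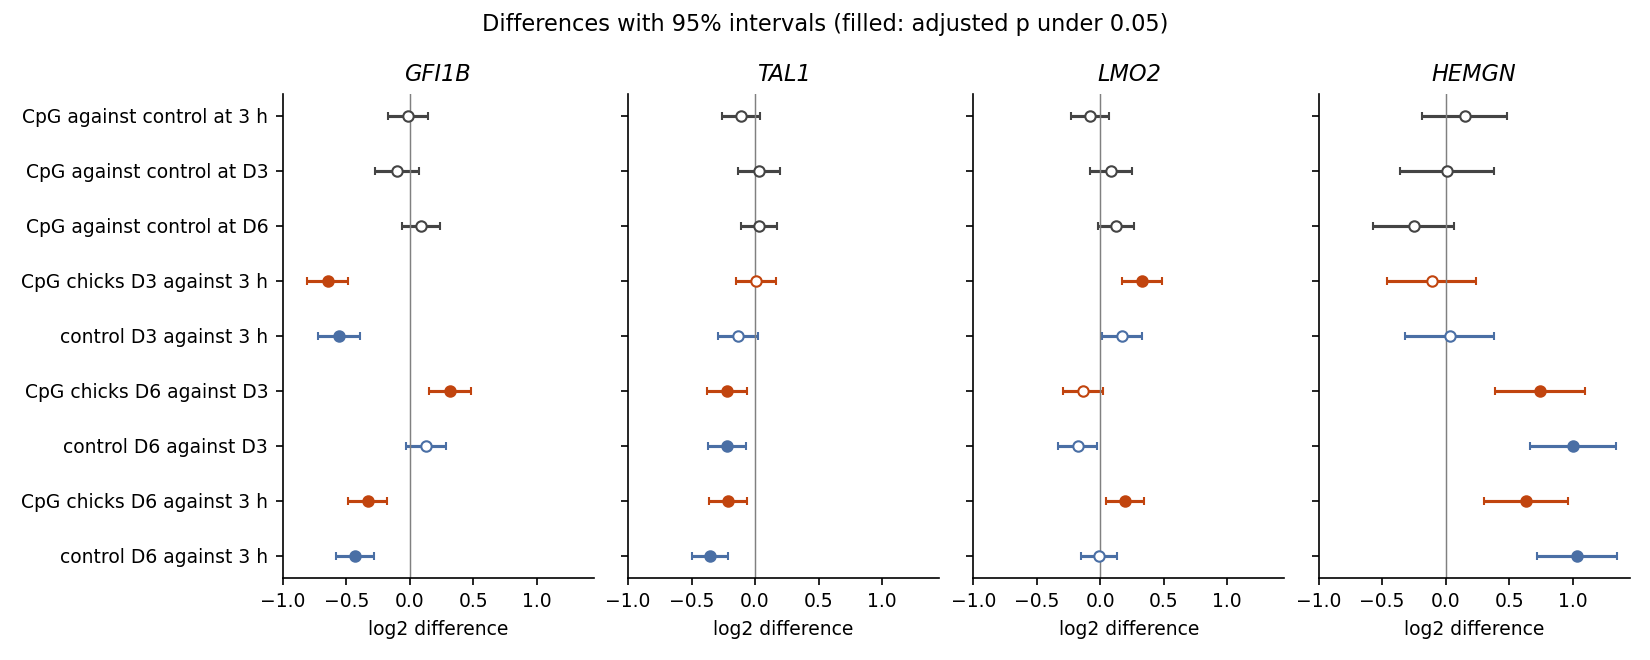
Log2 differences (horizontal axis) of the 4 genes with their 95% intervals, for CpG against control at each time and for each step of time in CpG and in control chicks; filled points have an adjusted p under 0.05. The CpG effects all span 0, GFI1B lies at -0.65 and -0.56 from 3 h to D3, and HEMGN at 0.74 and 1.00 from D3 to D6.

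HEMGN was the only Z-linked gene of the 4. Birds have ZZ males and ZW females, and most Z-linked genes are not fully dosage compensated. Sex is not labelled, so the mean z-score of 2 genes of the female-specific W chromosome, HINTW and ATP5F1AW, was used as a measured quantity. It ran from -1.34 to -0.18 in 31 chicks and from 0.42 to 1.43 in the other 27, with no chick in between. The higher scores were held by 3 of 10 CpG chicks and 4 of 10 controls at 3 h, 5 of 8 and 4 of 8 at D3, and 5 of 10 and 6 of 12 at D6.

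HEMGN fell by 0.25 ± 0.04 per unit of this score (log2, SE, adjusted p = 1.08e-05), in a limma fit with the 6 groups and the score over all 58 chicks. TAL1 (0.02 ± 0.02), LMO2 (0.03 ± 0.02) and GFI1B (0.06 ± 0.02, adjusted p = 0.419) had no slope that passed. Of all probe sets 2.74% had a slope that passed, and 2.22% a negative one. Among Z-linked genes 238 of 498 had a negative slope that passed and 7 a positive one, with a median of -0.13, whereas 0.352% of 10519 genes on other chromosomes passed in either direction. HEMGN ranked 148 of the 498 Z-linked genes from the most negative slope. Its slope without the 3 arrays that stood apart was -0.23.

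The score was planned as a covariate only, and the split of chicks at its gap was not planned. At D6 the chicks of low and high score did not overlap in HEMGN within either treatment. Across treatments they did: control chick 106 of high score (11.69) lay above CpG chicks 25 and 28 of low score (both 11.66). In CpG chicks the sides nearly touched, at 11.62 and 11.66 at D6 and at 10.80 and 10.81 at 3 h. The 6 controls of high score lay between 11.39 and 11.69 and the 6 of low score between 11.90 and 12.29. The 5 CpG chicks of high score lay between 10.33 and 11.62 and the 5 of low score between 11.66 and 12.09. Complete separation was also seen in CpG chicks at 3 h (10.41 to 10.80 for 3 chicks of high score, 10.81 to 11.32 for 7 of low score) and not in the other 3 groups. The share of probe sets or of Z-linked genes that separate in this way was not computed. The separation is thus not shown to be particular to HEMGN, and 49.2% of Z-linked genes had a slope that passed. With the score as a covariate the step of HEMGN from D3 to D6 was 0.71 in CpG chicks and 1.01 in controls (adjusted p = 0.00022 and 5.57e-07), and the CpG effect at D6 was -0.29 (adjusted p = 0.253).

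**Figure D3:**
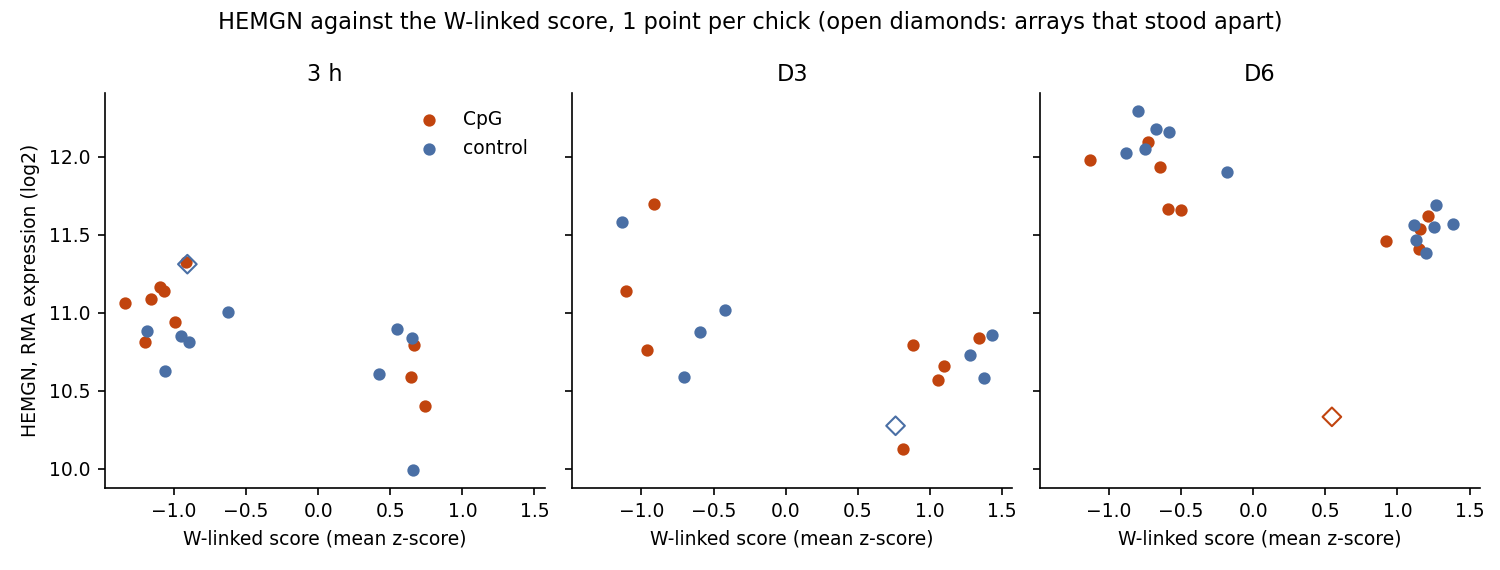
HEMGN expression (log2, vertical axis) against the W-linked score (mean z-score of 2 genes, horizontal axis) in each chick at 3 h, D3 and D6, with CpG and control chicks in different colours and open diamonds for the 3 arrays that stood apart. The groups of points overlap in height in 3 of the 6 groups, and at D6 the 6 controls on the right (11.39 to 11.69) are all below the 6 on the left (11.90 to 12.29).

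Chicks of one group also differed among themselves, and the relations of the 4 genes within groups were examined. Relations were computed on deviations from the group means over 58 chicks, which share their array and blood sample, with permutation within groups and adjustment over 14 relations (6 pairs of genes, and each gene with the erythroid effector and thrombocyte scores). None of the 14 passed, which does not show that the genes vary independently. The W-linked score was not taken out of these deviations. By r, the unadjusted permutation p was 0.0241 for TAL1 with HEMGN, 0.0271 for TAL1 with GFI1B and 0.0487 for LMO2 with HEMGN. It was 0.186 or more for the other pairs of genes, and 0.00541 for HEMGN with the erythroid effector score. Between genes, the largest r was that of HEMGN with TAL1 (r = -0.339, adjusted permutation p = 0.126; rho = -0.233, adjusted permutation p = 0.287), which was -0.254 without chicks 13 and 31 and -0.171 without the 3 arrays that stood apart. The largest rho was that of HEMGN with LMO2 (rho = -0.285, adjusted permutation p = 0.258; r = -0.273, adjusted permutation p = 0.171), whose r was -0.192 without chicks 13 and 15 and -0.346 without the 3 arrays. TAL1 with GFI1B had r = 0.302 (adjusted permutation p = 0.126; rho = 0.22, adjusted permutation p = 0.287), 0.163 without chicks 13 and 31 and 0.196 without the 3 arrays. HEMGN with the erythroid effector score had r = 0.445 (adjusted permutation p = 0.0757; rho = 0.222, adjusted permutation p = 0.287), 0.336 without the 3 arrays and 0.18 without chicks 31 and 14, so that this relation rests on those chicks. GFI1B with the same score had r = 0.175 (adjusted permutation p = 0.33; rho = 0.338, adjusted permutation p = 0.153), 0.358 without chicks 31 and 14 and 0.439 without the 3 arrays. TAL1 had r = -0.255 with this score (adjusted permutation p = 0.267; rho = -0.0896, adjusted permutation p = 0.682), -0.0882 without chicks 31 and 14 and 0.0971 without the 3 arrays, and LMO2 r = -0.0513 (adjusted permutation p = 0.844; rho = -0.125, adjusted permutation p = 0.596), -0.124 without those chicks and -0.267 without the 3 arrays. No gene had a relation with the thrombocyte score beyond r = 0.185 (GFI1B, adjusted permutation p = 0.33; rho = 0.187, adjusted permutation p = 0.338; 0.217 without chicks 106 and 76).

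The genes most like each regulator, by Pearson r of the same deviations over 58 arrays among 10700 named genes, are given as a description. For HEMGN they were ELL2 (r = 0.825), NDUFS4 (0.789) and ZCCHC6 (0.782), all on chromosome Z. With the W-linked score taken out these stood at 0.718, 0.605 and 0.622, and the genes most like HEMGN were then NMT1 (0.742) and SLC25A39 (0.721) on chromosome 27 and RNF10 (0.739) on chromosome 15. For TAL1 they were FAM78A (0.7), COQ6 (0.672) and BID (0.663), and for GFI1B they were C1QC (0.601), ADAMTSL5 (0.592) and CLIC2 (0.573). LMO2 had the weakest likeness, with BBOF1 (0.491), HSP90AB1 (0.48) and RNF8 (0.479).

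Around the 4 genes stand other factors that work with them or compete with them. Of 50 such partner regulators listed, 34 were measured. Between CpG and control chicks none of the 34 was called at 3 h or D3 by limma (2 and 4 had an unadjusted p under 0.05). At D6, 2 were higher in CpG chicks than in controls, beside 1.52% of probe sets called higher. These were SPI1, the myeloid factor PU.1 that opposes GATA1 (1.31 ± 0.21, adjusted p = 0.000235), and KLF6 (0.63 ± 0.15, adjusted p = 0.011). The median CpG effect of the 34 was -0.05, -0.01 and 0.05 at the 3 times, against -0.01, -0.02 and -0.02 over all probe sets. Monocyte genes, a list that includes SPI1, were higher at D6 as well (4 of 6), and their part in these values was not tested.

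In control chicks from 3 h to D3, 10 of the 34 partners fell, 4 rose and 20 did not pass (median -0.06, against 0.01 over all probe sets, of which 24.8% were called and 13% called lower). The largest falls were those of KLF6 (-1.04 ± 0.16), FLI1, a factor of the platelet lineage (-0.96 ± 0.16), MAFF (-0.87 ± 0.17) and MAFG (-0.83 ± 0.15), small MAF proteins that pair with NFE2. MAFK, another small MAF protein, named after its value was seen, fell by 0.42 ± 0.10. IKZF1 (1.32 ± 0.18), BCL11B (0.67 ± 0.14), MYB, a factor of blood progenitors (0.52 ± 0.13), and KLF2 (0.36 ± 0.13) rose.

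From D3 to D6 in controls, 10 partners fell, 2 rose and 22 did not pass (median -0.12, against 0.04 over all probe sets, of which 14.7% were called and 7.95% called lower). SPI1 fell by 1.11 ± 0.23, FLI1 by 0.52 ± 0.16, KLF13 by 0.50 ± 0.14 and KLF6 by 0.45 ± 0.16. ZFPM1, the GATA1 cofactor FOG1 (by 0.42 ± 0.11), and RCOR1, the partner of GFI1B (by 0.34 ± 0.09), also fell; both were picked from the 10 after their values were seen. HOXB4, a homeobox factor of blood stem cells (0.34 ± 0.11), and SOX6, a repressor of embryonic globin in mice (0.30 ± 0.07), rose. Over this step 6.76% of probe sets were called higher, so that a count of 2 is near the background. HOXB4 had a low mean of 6.09, below the cut of 6.259 used in the filter on low means. Over the whole span 14 fell and 8 rose, beside 21.7% of probe sets called lower and 26.2% higher. SPI1 (-1.59 ± 0.21), KLF6 (-1.49 ± 0.15), FLI1 (-1.48 ± 0.15) and MAFF (-1.10 ± 0.15) fell most, and IKZF1 (1.41 ± 0.16), BCL11B (0.76 ± 0.12), KDM1A (0.69 ± 0.19) and ZBTB7A (0.41 ± 0.14) rose most.

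The erythroid effector genes, the list behind the score above, were followed over the same contrasts. Whether TAL1, LMO2, GFI1B or HEMGN act on them was not tested. Of 43 listed, 26 were measured. No CpG effect passed at 3 h or D3 (0 and 6 with an unadjusted p under 0.05). At D6 XK, a red cell membrane protein, was higher in CpG chicks than in controls by 1.89 ± 0.29. BPGM, which makes 2,3-bisphosphoglycerate, was lower in CpG chicks than in controls by 0.81 ± 0.14. In this contrast 2.11% of probe sets were called either way. In controls from 3 h to D3, when GFI1B fell, 11 effectors rose, 9 fell and 6 did not pass, beside 24.8% of probe sets called either way. UROS (1.09 ± 0.15), FECH (0.91 ± 0.19) and SLC25A37, which brings iron into mitochondria (0.87 ± 0.12), serve haem synthesis and rose, as did XK (1.07 ± 0.32). HBE, an embryonic globin, fell by 1.98 ± 0.36, CAT, catalase, by 0.78 ± 0.27, JAK2, the kinase of the erythropoietin receptor, by 0.77 ± 0.11 and BPGM by 0.54 ± 0.16.

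From D3 to D6 in controls, when HEMGN rose, 3 effectors rose (UROS by 0.52 ± 0.15, NT5C3A by 0.39 ± 0.12 and CA2 by 0.12 ± 0.04), none fell and 23 did not pass, with a median of 0.06 against 0.04 over all probe sets, of which 14.7% were called. Over the whole span 12 rose and 8 fell, where 26.2% of probe sets were called higher and 21.7% lower. UROS (1.61 ± 0.14), UROD (1.20 ± 0.14), FECH (1.13 ± 0.18) and RHCE (1.10 ± 0.31) rose most, and HBE (-2.46 ± 0.32), CAT (-0.92 ± 0.24), JAK2 (-0.89 ± 0.10) and BCL2L1 (-0.51 ± 0.08) fell most.

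**Figure D4:**
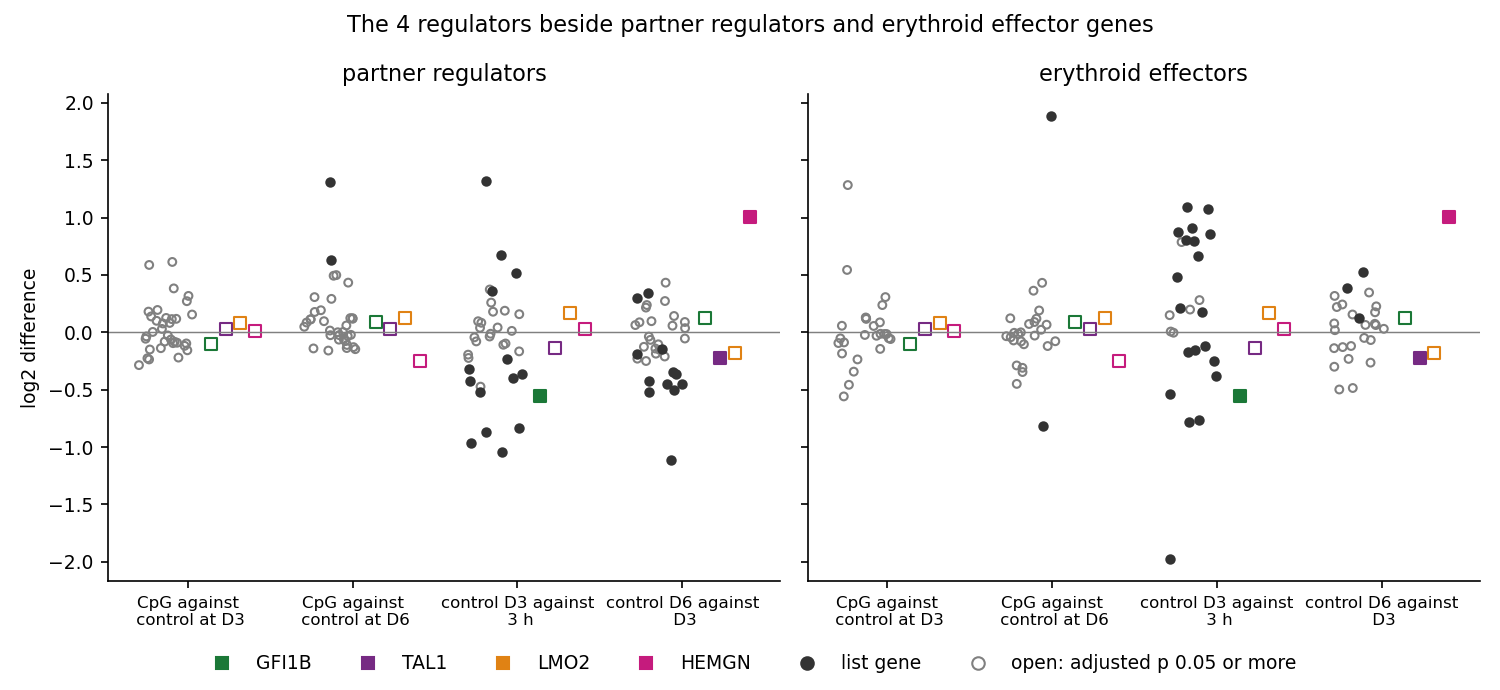
Log2 differences (vertical axis) of 34 partner regulators (left) and 26 erythroid effector genes (right) as circles, with the 4 regulators as squares beside them, in 2 CpG effects and 2 steps of time in control chicks; filled symbols have an adjusted p under 0.05. The 4 squares stay near 0 in the CpG effects, GFI1B lies at -0.56 in the step to D3 and HEMGN at 1.00 in the step to D6.

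Genes on the proliferation and cell type lists also changed over the same days. Proliferation genes rose from 3 h to D3, 14 of 17 in CpG chicks (median 0.73) and 15 of 17 in controls (median 1.23). In CpG chicks 9.68% of all probe sets were called higher over this step. In controls 24.8% were called either way, which includes 13% called lower. Proliferation genes fell from D3 to D6, 13 of 17 in CpG chicks and 6 of 17 in controls, beside 12.3% and 7.95% of probe sets called lower. From 3 h to D6 in controls, 8 of 10 heterophil genes and 5 of 6 monocyte genes fell, 8 of 10 T cell genes rose, and of 11 B cell genes 5 rose and 3 fell, beside 26.2% of probe sets called higher and 21.7% called lower. CD79B, a B cell receptor chain, averaged 7.22 ± 0.21 (SD, n = 10) in CpG chicks and 7.37 ± 0.20 (n = 12) in controls at D6. From D3 to D6, the step at which HEMGN rose, CD79B rose by 0.34 ± 0.09 (SE) in CpG chicks (limma adjusted p = 0.0038). In controls it rose by 0.36 ± 0.08 (limma adjusted p = 0.00297). CD79B was named as a marker that moved with HEMGN, so that it does not stand for the B cell list. The B cell score averaged -0.41 at D3 and 0.21 at D6 in CpG chicks, and -0.09 and 0.27 in controls. Over this step 14.8% of probe sets were called higher in CpG chicks and 6.76% in controls. The part of these shifts in the values of the 4 regulators was not tested.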

How the data were processed

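Total RNA of whole blood was hybridised to 1 Affymetrix array per chick (58 chicks). The deposited table holds log2 values made by the authors with RMA, per the submitters' processing notes; the RMA version is not stated in these sources. Its values, used as deposited, ran from 1.12 to 14.7. Signal over background is not known from them, and the number of chicks limits the precision. The platform annotation gave 12300 of 20804 probe sets a single symbol, 256 several and 8248 none; 11727 probe sets had an official symbol in the GRCg7b table.

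Group means of all 58 arrays were modelled together in limma 3.58.1 (R 4.3.3; lmFit, eBayes; 52 residual and 4.17 prior degrees of freedom), with two-sided p-values adjusted by Benjamini-Hochberg over 20804 probe sets per contrast and a threshold of 0.05 ("called"). SE is the moderated standard error, and intervals are at 95%. Every time step is later minus earlier and every CpG effect is CpG minus control. Chicks of different groups share no numbers, so none were paired. Scores are mean z-scores of list genes. Relations used 100000 permutations within groups. An array stood apart if its median correlation lay over 3 interquartile ranges below the first quartile.

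The members, and the lists of partner regulators, erythroid effectors, thrombocyte, heterophil, monocyte, T cell, B cell, proliferation and W-linked genes, were chosen with earlier results of these data known. Named list genes are up to 4 called each way with the largest difference in the CpG effects and the control time steps, with exceptions marked where they stand; MAFK was added after its value was seen. The fit was tested on simulated data. Alternatives were a filter on low means, the contrast's own arrays, array weights, a trended robust prior, subtracted array medians, repeated quantile normalization, single probe sets per gene, LMO2's second probe set, the W-linked, erythroid effector and thrombocyte scores as covariates, each chick left out, and, chosen after seeing the data, the 3 arrays left out.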

Additional observations from a re-analysis of the deposited data

Results flagged for a closer look

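In 20 sets of values (4 genes in the 5 groups of 8 to 10 chicks), 5 had a chick far from the others of its group by Dixon's criterion; chance flags about 1 in 20. CpG chick 31 at D6, whose array stood apart, was lowest in HEMGN, at 10.33 against 11.41 to 12.09 in the other 9, and highest in TAL1, at 12.37 against 11.69 to 11.95. In controls, HEMGN was at 9.994 in chick 75 at 3 h against 10.61 to 11.31 in the others, just past the criterion, and GFI1B at 11.02 in chick 90 at D3 against 11.49 to 11.78. In CpG chicks at 3 h GFI1B was at 11.82 in chick 7 against 12.05 to 12.23. The causes were not tested.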

How the results depend on the processing

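The number of the 4 genes called kept within 1.5 times its value in all 12 contrasts and for the W-linked score, except for the control step from D3 to D6: 2 genes were called, against 1 with array weights, repeated quantile normalization, the erythroid effector or the thrombocyte score as a covariate, or without the 3 arrays that stood apart, and 1 to 2 with single chicks left out. The gene lost was TAL1 (-0.17 to -0.22 where leaving out a chick ended the call, adjusted p up to 0.106); the cause was not tested. The calls of GFI1B and HEMGN kept their direction and side of the threshold in all the settings run. In CpG chicks TAL1 lost its call from D3 to D6 with the contrast's own arrays (adjusted p = 0.119), repeated quantile normalization (0.13) and the erythroid effector score (0.0523). Differences that never passed and lay near 0 changed sign. For the CpG effects, GFI1B at 3 h (-0.0129) was at 0.0025 with array medians subtracted, 0.000216 with the W-linked and 0.00848 with the thrombocyte score; HEMGN at D3 (0.00924) at -0.0447 with repeated quantile normalization and -0.0675 without the 3 arrays; TAL1 at D6 (0.0318) at -0.01 with array weights and -0.0179 without the 3 arrays; and LMO2 at D3 (0.0811) at -0.0342 with its second probe set. For the time steps, TAL1 in CpG chicks from 3 h to D3 (0.00498) was at -0.0195 with array weights, -0.0162 with array medians subtracted and -0.013 with the W-linked score; HEMGN was at 0.106 in CpG chicks with the W-linked score (-0.109 without) and at -0.2 in controls with the erythroid effector score (0.0308 without); and LMO2 in controls from 3 h to D6 (-0.0122) was at 0.0583 with repeated quantile normalization, 0.00267 with the erythroid effector score and 0.0528 with its second probe set. The change of the CpG effect on TAL1 from D3 to D6 (0.00249) was at -0.0754 with array weights, -0.0129 with the thrombocyte score and -0.0971 without the 3 arrays. With single chicks left out, sign changes were seen in GFI1B for CpG at 3 h (-0.0348 to 0.0218), TAL1 for CpG at D3 (-0.00528 to 0.0948) and D6 (-0.0179 to 0.0572), HEMGN for CpG at D3 (-0.116 to 0.119) and for the control step to D3 (-0.0787 to 0.108), LMO2 for controls from 3 h to D6 (-0.0465 to 0.0178), TAL1 for CpG chicks to D3 (-0.0296 to 0.0705), and the change of the CpG effect from D3 to D6 in TAL1 (-0.063 to 0.0371) and LMO2 (-2.52e-05 to 0.0945). No paired analysis was possible because chick numbers differ between groups.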
